A study of Mus musculus with 16 samples.

Results

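The genes described here are 10 enzymes of fatty acid synthesis, desaturation and elongation in mouse rod photoreceptors of 4 ages: the stearoyl-CoA desaturases Scd1 and Scd2, the polyunsaturated fatty acid desaturases Fads1 and Fads2, the elongases Elovl1, Elovl2, Elovl4 and Elovl5, the fatty acid synthase Fasn and the acetyl-CoA carboxylase Acaca. They were chosen by symbol, and each of the 10 was found among the 45594 genes of the authors' gene table. Of these 10, 8 reached 5 CPM or more in 4 or more libraries and were tested, where CPM is a count scaled by the size of its library. Fads2 and Elovl5 stayed below that level. Scd1 reached it only through libraries of 18M and 24M, and a gene that passes in that way has to differ between ages.

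New fatty acids are built from malonyl-CoA, which acetyl-CoA carboxylase makes, by fatty acid synthase, whose main product is palmitate. Stearoyl-CoA desaturases put the first double bond into saturated acyl chains, while Fads1 and Fads2 add further double bonds to polyunsaturated chains taken up from the diet, and the Elovl enzymes lengthen acyl chains on the endoplasmic reticulum. Rod outer segments are stacks of membrane rich in docosahexaenoic acid, which is made by successive Fads and Elovl steps, and photoreceptors hold very long-chain polyunsaturated fatty acids, which Elovl4 makes.

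Each group is a set of rods sorted by flow cytometry for green fluorescent protein from C57BL/6J mice carrying the Nrlp-GFP transgene, in which the promoter of the rod transcription factor gene Nrl drives the reporter, and all 4 groups share that transgene. Mice were 3 months (3M), 12 months (12M), 18 months (18M) or 24 months (24M) old, and 4 libraries were made at each age, 16 in all. The design text calls the 4 libraries of an age biological replicates, and the labels do not say if each is 1 mouse or a pool, so p-values measure the spread between these libraries. The question behind the comparisons is how the RNA content of rods differs with age. Libraries held 20579144 to 28791777 estimated counts. Gnat1, the transducin subunit of rods, read 3475 to 5319 CPM at 24M and 4538 to 5624 CPM at 3M. Rpe65, which marks the retinal pigment epithelium, stayed at or below 0.2 CPM in all 16 libraries. Of the 10 listed genes of that cell type Tyr read highest on average, at 1.99 to 6.13 CPM. That list summed to 8.41 to 13.6 CPM over the 16 libraries, and the list of Müller glia to 199 to 567 CPM. In a sorted bulk sample, fewer cells of a type and less RNA per cell cannot be told apart.

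Scd1 and Scd2 catalyse the same reaction and lie close together on chromosome 19 (GRCm38), with Scd1 at chr19:44394455-44407879 on the minus strand and Scd2 at chr19:44293674-44306864 on the plus strand, 87591 bases apart. Their coding sequences are 90.3% identical (962 of 1065 aligned bases), and the longest identical run is 147 bases. Of the 4802 words of 31 bases in the Scd1 transcript, 401 (8.35%) also occur in other genes, 284 of them in the paralog Scd3 and 252 in Scd2, and of the 5425 in the Scd2 transcript 372 (6.86%) do. Reads from such stretches could be given to either gene, so the counts of the Scd genes are uncertain to that extent. The following 90-base windows of the GENCODE coding sequences, 5′ to 3′, show where the pair can and cannot be told apart by sequence. The first pair is the stretch in which they differ most, at coding positions 75 to 164 of Scd1 and 84 to 173 of Scd2, with the 30 bases that differ in capitals.
Scd1: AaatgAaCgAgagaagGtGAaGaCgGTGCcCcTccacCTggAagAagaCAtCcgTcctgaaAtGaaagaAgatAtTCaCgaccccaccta
Scd2: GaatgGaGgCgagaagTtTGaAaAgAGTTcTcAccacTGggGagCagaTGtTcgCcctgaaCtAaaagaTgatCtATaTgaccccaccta
The next window lies in the longest identical run, at coding positions 551 to 640 of Scd1 and 560 to 649 of Scd2, and has the same 90 bases in both genes.
Scd1 and Scd2: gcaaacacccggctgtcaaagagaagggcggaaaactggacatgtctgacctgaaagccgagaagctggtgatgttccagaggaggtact

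Of the 8 tested members Scd1 moved most with age, and it was higher at each later age than at 3M. At 3M its 4 libraries read 0.935, 1.34, 1.04 and 1.28 CPM. At 12M they read 4.32, 3.78, 3.14 and 3.68 CPM. At 18M they read 6.07, 6.68, 4.75 and 6.41 CPM, and at 24M 9.20, 8.50, 9.96 and 7.68 CPM. The 4 ages formed 4 separate bands in which each library of an age lay above every library of the age before it. These levels rest on 175 to 257 estimated counts per library at 24M and 26 to 36 at 3M, so the 3M values carry the larger counting error.

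Relative to 3M, Scd1 rose 7.67-fold at 24M (log2 fold change 2.94, SE 0.16, 95% interval 2.59 to 3.29, edgeR adjusted p = 1.719e-08), with means of 8.84 ± 0.974 CPM at 24M and 1.15 ± 0.191 CPM at 3M (SD, n = 4 each). It rose 5.19-fold at 18M against 3M (log2 fold change 2.38, SE 0.17, edgeR adjusted p = 3.517e-07), where the mean was 5.98 ± 0.857 CPM. It rose 3.24-fold at 12M against 3M (log2 fold change 1.70, SE 0.17, edgeR adjusted p = 2.772e-05), where the mean was 3.73 ± 0.483 CPM. These 3 comparisons share the 3M libraries. Since Scd1 passed the filter only through later ages, its values are also given from the fit with no filter, in which edgeR gave adjusted p-values of 1.715e-09 at 24M, 9.55e-08 at 18M and 2.727e-05 at 12M. The linear fit over the 16 libraries gave a slope of 0.14 on the log2 scale per month (edgeR adjusted p = 5.777e-08), which is 2.86 over the 21 months, and the test for any difference among ages gave an adjusted p of 1.499e-07 with edgeR.

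Between consecutive later ages the Scd1 libraries did not overlap either, but the steps were smaller and did not pass the test across all genes. The step of 18M against 12M was 0.68 on the log2 scale (SE 0.15, 95% interval 0.36 to 1.00, edgeR adjusted p = 0.4823). The step of 24M against 18M was 0.56 (SE 0.14, 95% interval 0.26 to 0.87, edgeR adjusted p = 0.44). With edgeR, 0 of the 8 tested members were called in either comparison, where the share of all 12177 genes called was 0.00821% for 18M against 12M and 0% for 24M against 18M. Scd1 was the 1 member with an unadjusted p under 0.05 in each. Of the 12177 tested genes, 271 had such a p for 18M against 12M and 680 for 24M against 18M. DESeq2 called Scd1 at 18M against 12M and called 0 members at 24M against 18M. limma voom called 0 members in both. Ages without overlap and with the later one higher made up 0.895% of tested genes for 18M against 12M and 2.43% for 24M against 18M.

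Scd2 was the more abundant of the pair, and it was modestly higher at 24M than at 3M. Its libraries at 3M read 65.1, 62.3, 65.2 and 66.7 CPM. At 12M they read 71.5, 65.7, 61.8 and 83.2 CPM, and at 18M 70.7, 78.0, 64.0 and 83.8 CPM. At 24M they read 81.5, 86.8, 88.6 and 81.3 CPM, all above the 4 libraries of 3M, while the 12M and 18M libraries spread over both ranges. Scd2 rose 1.30-fold at 24M against 3M (log2 fold change 0.38, SE 0.09, 95% interval 0.18 to 0.58, edgeR adjusted p = 0.02788), and its linear slope of 0.017 log2 units per month also passed (edgeR adjusted p = 0.01894). The differences of 18M and 12M from 3M were 0.19 (edgeR adjusted p = 0.4292) and 0.12 (edgeR adjusted p = 0.7076) on the log2 scale, and the test for any difference among ages gave an edgeR adjusted p of 0.1595. The 24M call did not survive the removal of any 1 of the 8 libraries of 3M and 24M, without which the edgeR adjusted p lay between 0.05151 and 0.09975, nor a filter of 1 CPM (adjusted p = 0.05938), no filter (adjusted p = 0.136) or limma on the authors' gene CPM (adjusted p = 0.09578 with a pseudocount of 0.5).

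**Figure D1:**
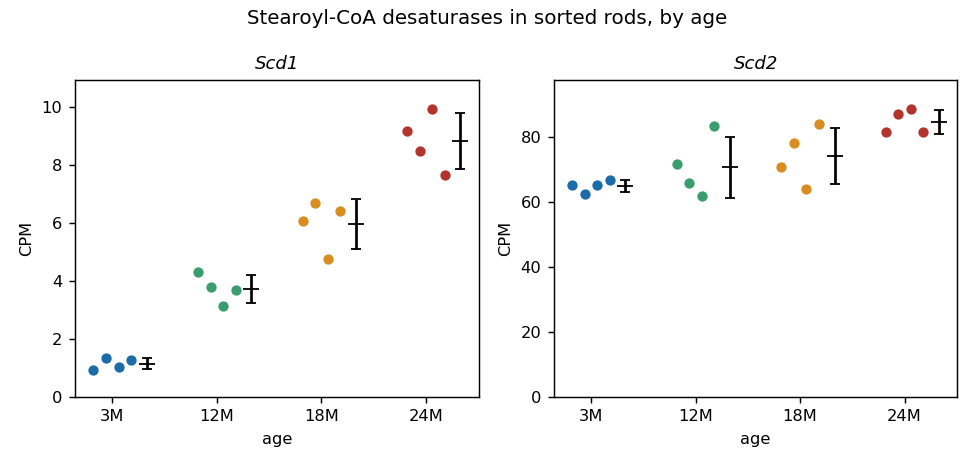
CPM of Scd1 (left) and Scd2 (right) on linear axes from 0, by age; each point is 1 library, and the dash with its bar is the mean ± SD of the 4 libraries of an age. The Scd1 libraries lie between 7.68 and 9.96 CPM at 24M and between 0.935 and 1.34 CPM at 3M with no overlap between consecutive ages, while the Scd2 libraries of 24M (81.3 to 88.6 CPM) lie above those of 3M (62.3 to 66.7 CPM) and those of 12M and 18M span both.

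Scd1 thus took a growing share of the counts of the pair. Its percentage of the summed Scd1 and Scd2 counts was 10.2, 8.90, 10.1 and 8.62 in the 24M libraries and 1.41, 2.10, 1.56 and 1.90 in the 3M libraries. The mean share was 9.45% (SD 0.806, n = 4) at 24M and 1.74% (SD 0.314, n = 4) at 3M, a difference of 7.71 percentage points, which follows from the levels above and is given as a description. At 12M the share was 5.05 ± 0.63% and at 18M 7.46 ± 0.538%. Corrected for transcript length (4832 bases for Scd1 and 5455 for Scd2), the share was 10.5 ± 0.888% in 24M libraries and 1.96 ± 0.353% in 3M libraries, so Scd2 remained the larger part of the pair in every library. Scd3, the paralog with which each of the pair shares most words, read 12.8 ± 1.63 CPM at 24M and 12.0 ± 0.897 CPM at 3M (log2 fold change 0.09, 95% interval -0.29 to 0.46, edgeR adjusted p = 0.9079).

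With edgeR, 2 of the 8 tested members (Scd1 and Scd2) were called at 24M against 3M, both higher. Among all 12177 tested genes, 4.25% were called, with 2.65% called higher and 1.6% called lower. At 18M against 3M 1 member was called (Scd1, higher), beside 2.64% of all tested genes, with 1.68% called higher. At 12M against 3M it was again Scd1, beside 1.39% of all genes, with 0.977% called higher. The linear term called 2 members (Scd1 and Scd2), beside 4.8% of all genes, with 2.84% rising, and the test for any difference called 1 (Scd1), beside 2.82%. These counts of members include Scd1, which passed the filter only where it was high, and are a description. Libraries of 24M and 3M did not overlap, with 24M higher, for the same pair among the 10 members and for 5.28% of tested genes. For 18M and 3M, and for 12M and 3M, the libraries were separate in that direction for Scd1 and for 7.22% and 2.42% of tested genes. In the authors' deposited table of comparisons, which does not name its libraries and reports 26.7% of 11826 genes with an adjusted p under 0.05, Scd1 had log2 differences of 1.69, 2.48 and 2.87 from 3M at 12M, 18M and 24M and ranked 12 by p. In the authors' deposited table Scd2 had 0.032, 0.25 and 0.36 at the same ages, with an adjusted p of 0.00707 for any difference.

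Markers of other cells were set beside these changes. The Müller glia list (12 genes, 11 tested, 1 called higher and 0 lower at 24M) summed to 276 to 395 CPM at 24M and 199 to 335 CPM at 3M, with an exact permutation p of 0.0571 (0.1429 after adjustment over 10 marker lists). In 12M replicate 4, which held the highest glial sum of the series at 567 CPM, Scd1 was at 3.68 CPM, within the range of the other 12M libraries, and Scd2 at 83.2 CPM, above them. The microglia list summed to 10.9 to 13.7 CPM at 24M and 9.38 to 11 CPM at 3M (exact permutation p = 0.0571, adjusted 0.1429). The list for adipocytes and sebocytes, cells known for high Scd1, summed to 55.6 to 77.4 CPM at 24M and 46.9 to 64.8 CPM at 3M (exact permutation p = 0.1143, adjusted 0.2286). Of its 8 genes 2 were tested and 1 was called, Soat1, higher at 43.9 ± 1.5 CPM at 24M and 36.2 ± 1.34 CPM at 3M, while Fabp4 averaged 25.3 ± 9.64 CPM at 24M and 19.4 ± 6.48 CPM at 3M. The defining marker Adipoq was at most 0.144 CPM and Plin1 at most 1.81 CPM in any library. The astrocyte list, most of it Slc1a2, summed to 192 to 302 CPM at 24M and 285 to 314 CPM at 3M (exact permutation p = 0.0571). The lists for cones, bipolar cells, amacrine and ganglion cells, pigment epithelium, and endothelial cells with pericytes summed to 99.6, 249, 165, 10.5 and 43.8 CPM at 24M and 82, 257, 172, 11.4 and 38 CPM at 3M, with exact permutation p between 0.2286 and 0.6286. Of the cone list (10 genes, 7 tested) 1 was called higher and 0 lower at 24M with edgeR. Gnb3 of that list read 24.3 to 42.1 CPM at 24M and 14.2 to 17.3 CPM at 3M. The part of glial RNA, or of RNA from the other listed cells, in the Scd1 and Scd2 results was not tested.

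In level per transcript length, the 10 genes spanned from Elovl4 to Elovl5. On the TPM scale (counts divided by annotated transcript length and scaled to a common total), the means over the 16 libraries were 116 for Elovl4, 53.2 for Acaca, 9.87 for Scd2, 8.89 for Elovl2, 6.27 for Fasn, 5.13 for Elovl1, 1.45 for Fads1, 0.761 for Scd1, 0.695 for Fads2 and 0.204 for Elovl5. The ranges over libraries were separate between Elovl4 (82.6 to 146) and Acaca (36.2 to 78.1), between Acaca and Scd2 (7.69 to 13.6), and between Elovl1 (3.42 to 7.98) and Fads1 (1.16 to 1.72). The other neighbours in that order overlapped. Elovl4 lay above 96.1% of all tested genes and Acaca above 90.8%. Each transcript was divided by its own length, so a count of a short transcript weighs more on this scale. Such transcripts include Acaca-206 (431 bases, 2.97% of the Acaca counts) and the noncoding Elovl1-205 (473 bases, 29.2% of the Elovl1 counts). The levels of Acaca and Elovl1, and their distance from other genes, rest in part on them. The place of Scd1 in that order moved with age, since its per-length level was 1.39 ± 0.240 at 24M and 0.158 ± 0.0259 at 3M, beside 0.777 and 0.803 for Fads2 at these ages.

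**Figure D2:**
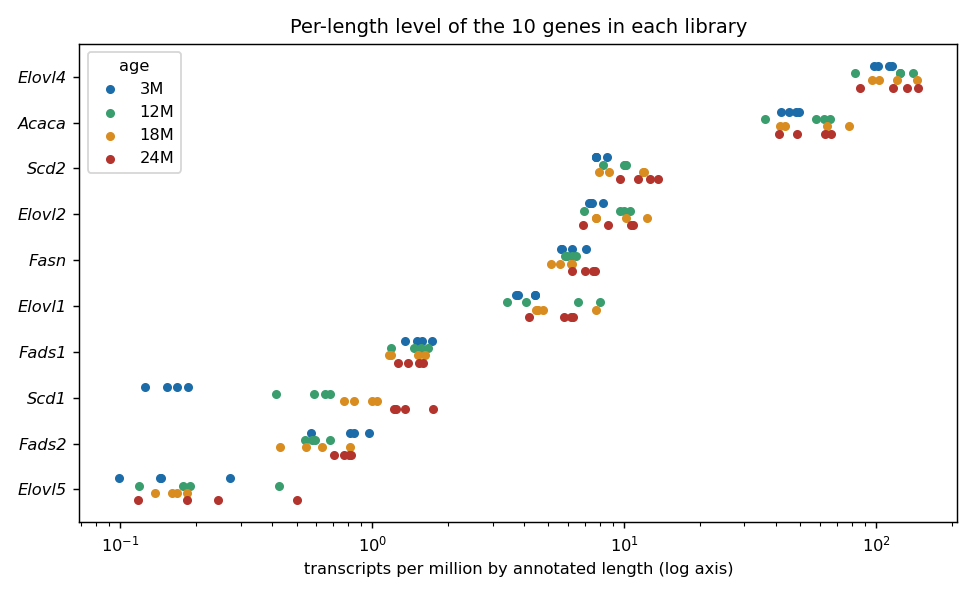
TPM by annotated length of the 10 genes in each of the 16 libraries, on a log axis, with genes in the order of their mean and points coloured by age. Elovl4 (82.6 to 146) and Acaca (36.2 to 78.1) stand above the rest, and Scd1 is the gene whose ages separate, with a mean of 1.39 at 24M and 0.158 at 3M.

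Among the elongases, the photoreceptor enzyme Elovl4 (chr9:83778692-83806277, minus strand) did not pass the test at any age. Its libraries at 24M read 417, 427, 373 and 407 CPM, against 459, 456, 380 and 406 CPM at 3M, and the ranges overlap. The log2 fold change of 24M against 3M was -0.07 (SE 0.08, 95% interval -0.24 to 0.11, edgeR adjusted p = 0.8266), so a change larger than 0.24 in either direction lies outside the interval. The counts of Elovl4 were split over 2 annotated transcripts, and the short one, Elovl4-202 (782 bases), held 5.69 ± 0.38% of the gene's counts at 24M and 4.83 ± 0.357% at 3M, with 4.30 ± 0.278% at 12M and 3.86 ± 0.313% at 18M. The 24M libraries (5.31 to 6.21%) lay above those of 12M and 18M and touched the highest library of 3M (5.33%). That transcript was singled out after its values were seen, and no test was made.

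Elovl2 (chr13:41182381-41220405, minus strand) elongates the intermediates that lead to docosahexaenoic acid, and in humans its promoter is widely used as a DNA methylation marker of age. Its libraries at 24M read 45.1, 46.7, 44.4 and 47.9 CPM, against 42.7, 46.9, 39.6 and 45.1 CPM at 3M. The ranges overlap, and the 3M libraries were the more scattered. The log2 fold change of 24M against 3M was 0.08 (SE 0.06, 95% interval -0.06 to 0.22, edgeR adjusted p = 0.6813). At 18M the libraries read 48.2, 48.4, 46.5 and 50 CPM, and the log2 difference from 3M was 0.15 (95% interval 0.01 to 0.28, edgeR adjusted p = 0.3411). Elovl2 thus varied little, with all 16 libraries between 39.6 and 50 CPM.

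Elovl1 (chr4:118428093-118432953, plus strand), which elongates saturated and monounsaturated very long chains, read 5.59, 5.10, 8.22 and 5.87 CPM at 24M, against 5.68, 4.8, 5.50 and 5.67 CPM at 3M. The high value was that of 24M replicate 3, and 24M replicate 4 lay just above the 3M libraries, but the ranges overlap (log2 fold change 0.20, SE 0.18, 95% interval -0.19 to 0.58, edgeR adjusted p = 0.7371). Elovl5 (chr9:77917364-77984519, plus strand), which elongates the polyunsaturated intermediates made by Fads2, was near the limit of counting, with 6 to 33 estimated counts and 0.222 to 1.64 CPM per library (median 0.638). With no filter on low values its log2 fold change at 24M against 3M was 0.44 with a 95% interval from -0.54 to 1.43 (edgeR adjusted p = 0.8364). The interval is wide, and any change within it is compatible with these low counts.

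The polyunsaturated desaturases lay lower at the later ages without passing the test. Fads1 (chr19:10182888-10196877, plus strand), the delta-5 desaturase, read 5.79, 6.80, 7.37 and 6.48 CPM at 24M, against 8.02, 6.92, 7.59 and 9.42 CPM at 3M. At 12M its libraries read 5.41, 6.05, 6.39 and 10.1 CPM, and at 18M 6.67, 6.58, 5.17 and 7.17 CPM. The later libraries mostly lay below those of 3M, apart from 12M replicate 4, which was the highest of the series. The log2 fold change was -0.27 at 24M (95% interval -0.65 to 0.10, edgeR adjusted p = 0.5596), -0.32 at 18M (adjusted p = 0.5017) and -0.20 at 12M (adjusted p = 0.7295). Without 12M replicate 4 the difference of 12M from 3M was -0.42 (edgeR adjusted p = 0.08754), and in the 13 libraries that the authors' normalized table holds it was -0.42 with an adjusted p of 0.0145 (edgeR), in a fit that called 38.4% of all genes.

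Fads2 (chr19:10062765-10101746, minus strand), the delta-6 desaturase, was below the filter. It read 2.66, 3.59, 3.76 and 3.05 CPM at 24M, against 4.10, 2.68, 3.62 and 4.86 CPM at 3M. At 12M the libraries read 2.22, 2.18, 2.07 and 3.98 CPM and at 18M 2.80, 2.23, 1.96 and 3.28 CPM. All ages overlapped 3M, with the lowest values at 12M and 18M. With a filter of 1 CPM, which left 17683 genes, its log2 fold changes from 3M were -0.24 at 24M (95% interval -0.74 to 0.26), -0.59 at 18M (-1.10 to -0.08) and -0.56 at 12M (-1.07 to -0.05), with edgeR adjusted p-values of 0.7696, 0.313 and 0.4753.

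Of the enzymes of new synthesis, Acaca (chr11:84129672-84401651, plus strand) was abundant, and Fasn (chr11:120805846-120824547, minus strand) had single libraries far above the others of their age. Acaca read 368, 342, 316 and 345 CPM at 24M, against 308, 327, 325 and 314 CPM at 3M, which overlap (log2 fold change 0.11, SE 0.08, 95% interval -0.06 to 0.27, edgeR adjusted p = 0.6461, and -0.002 by limma on the authors' gene CPM). Its gene overlaps Gm11437 on the opposite strand over 19126 bases, but Gm11437 averaged 0.767 CPM. Fasn read 47.2, 58.8, 79.0 and 51.2 CPM at 24M, against 46.5, 52.1, 57.0 and 60.7 CPM at 3M. At 12M its libraries read 42.8, 41.6, 43.2 and 70.1 CPM, and at 18M 52.7, 56.8, 39.3 and 52.7 CPM. Single libraries, 24M replicate 3 and 12M replicate 4, stood above all others.

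The log2 fold change of Fasn at 24M against 3M was 0.13 (SE 0.19, 95% interval -0.27 to 0.52, edgeR adjusted p = 0.8612), and it turned to -0.05 without 24M replicate 3 and to -0.009 by limma on the authors' gene CPM. At 12M it was -0.13 (edgeR adjusted p = 0.7861) with all libraries and -0.35 (adjusted p = 0.1651) without 12M replicate 4. Both libraries with high Fasn also had the lowest slopes of log2 CPM on log2 transcript length, -0.08 for 24M replicate 3 and -0.05 for 12M replicate 4, beside -0.04 to 0.08 in the others. With that slope as a covariate the log2 fold change of Fasn at 24M against 3M was 0.28 (edgeR adjusted p = 0.0401). In the authors' deposited table Fasn had log2 differences of -0.33, -0.15 and -0.09 from 3M at 12M, 18M and 24M and an adjusted p of 0.0372 for any difference.

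**Figure D3:**
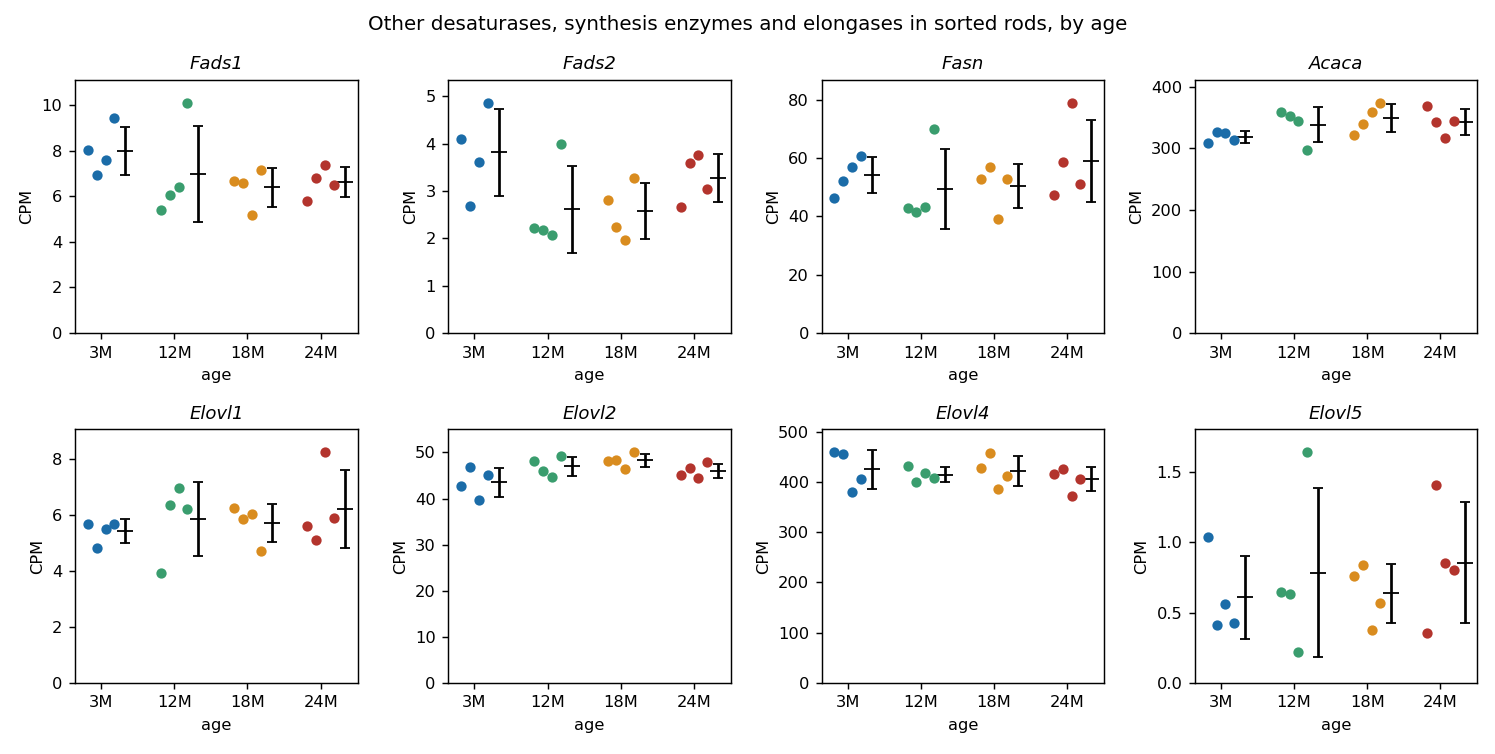
CPM of the other 8 genes by age on linear axes from 0; each point is 1 library, and the dash with its bar is the mean ± SD of the 4 libraries of an age. The ages overlap in every panel at 24M and 3M, and 12M replicate 4 stands apart in Fads2 (3.98 CPM) and Fasn (70.1 CPM).

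Fasn and Fads2 both stood high in 12M replicate 4, a library that also held the highest Müller glia and cone sums of the series (567 and 132 CPM). Their high values there are thus not particular to this pair of genes. The 250 bases before the RefSeq starts of Fasn and Fads2 (GRCm38.p6) are shown as a description. They lie at chr11:120824548-120824797 for Fasn and chr19:10101504-10101753 for Fads2, each 5′ to 3′ on the minus strand of the chromosome. Capitals mark the letters CCAAT, the box read by NF-Y, and GGGCGG, the box read by Sp1, on either strand. RefSeq sequences matched 7 of the 10 members, and Scd1, Scd2 and Fads1 are named only.
Fasn: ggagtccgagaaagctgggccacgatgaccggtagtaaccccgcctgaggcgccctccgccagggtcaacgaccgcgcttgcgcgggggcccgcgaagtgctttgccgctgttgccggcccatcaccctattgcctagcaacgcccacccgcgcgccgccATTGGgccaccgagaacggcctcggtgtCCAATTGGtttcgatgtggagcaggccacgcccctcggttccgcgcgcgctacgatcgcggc
Fads2: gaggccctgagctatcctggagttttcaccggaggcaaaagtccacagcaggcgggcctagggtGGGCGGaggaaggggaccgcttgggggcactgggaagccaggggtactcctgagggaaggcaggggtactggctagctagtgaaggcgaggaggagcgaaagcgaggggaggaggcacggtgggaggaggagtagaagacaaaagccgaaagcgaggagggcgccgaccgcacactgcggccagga
Fasn held 3 matches to CCAAT, of which a pair overlaps, at -90, -62 and -59 from the start, and Fads2 held 0 of them and 1 match to GGGCGG at -186. CCAAT occurred in 33.8% and GGGCGG in 32.7% of 32851 promoters of the same length, so the presence of either is common. CACGTG, a form of the E-box and the only form looked for, was found in neither promoter and in 6.02% of all promoters. TAATCC, the letters read by the photoreceptor factor CRX, was found in neither and in 6.25%. These matches are a description of letters and not of binding.

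**Figure D4:**
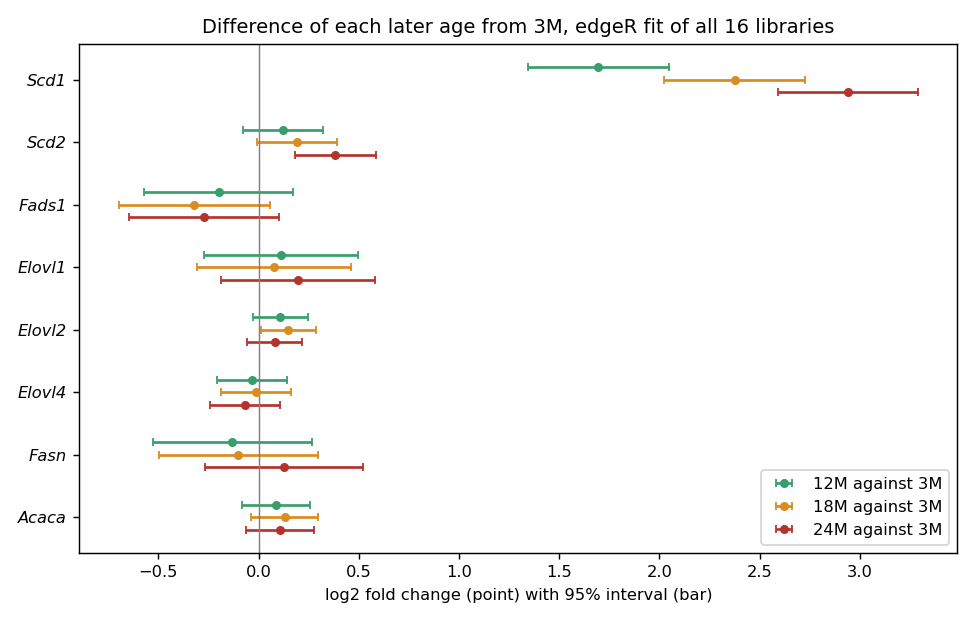
Log2 fold change from 3M of the 8 tested genes at 12M, 18M and 24M (points) with 95% intervals (bars), from the edgeR fit of 16 libraries; the grey line is at 0. Scd1 stands at 1.70, 2.38 and 2.94, Scd2 at 24M is at 0.38 with an interval above 0, and the intervals at 24M of the other 6 genes cross 0.

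The wider pathway was described by 6 lists of genes. For comparison with their counts, edgeR called 2.65% of all 12177 tested genes higher and 1.6% lower at 24M against 3M. The shares of all genes called by DESeq2 and limma voom are not given. Their counts for these lists have no such background and are not read as results about the lists. Of the paralogs of the 10 genes (10 listed, 6 tested), 0 were called at 24M against 3M with edgeR, 0 had an unadjusted p under 0.05, and DESeq2 and limma voom called 0, with a median log2 fold change of 0.02. Scd4 had a log2 fold change of 0.16 (95% interval -0.52 to 0.83) and Elovl6 of -0.17 (-0.58 to 0.24). Of the enzymes that complete the elongation cycle with the Elovl proteins (7 listed, 5 tested), 1 was called lower, with edgeR, DESeq2 and limma voom. That was Hsd17b12, the 3-ketoacyl-CoA reductase of the cycle, at 6.19, 9.37, 6.78 and 6.44 CPM at 24M, against 13.7, 11.2, 11 and 14.8 CPM at 3M. The libraries do not overlap, and Hsd17b12 fell 1.76-fold (log2 fold change -0.82, SE 0.19, edgeR adjusted p = 0.02015), a call lost without 3M replicate 1 or 4 or 24M replicate 1 or 4 (adjusted p between 0.06535 and 0.07822). The dehydratases Hacd1, Hacd2 and Hacd3 and the reductase Tecr of the same cycle had log2 fold changes of 0.003, -0.06, -0.17 and 0.04, which did not pass.

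The regulators of lipid synthesis did not pass the test. With edgeR 0 of 18 tested regulators (22 listed) were called at 24M against 3M, 0 had an unadjusted p under 0.05, DESeq2 and limma voom called 0, and the median log2 fold change was 0.005. Srebf1, the transcription factor that drives Scd1, Fasn and Acaca in liver, read 75.4, 81.0, 105 and 75.4 CPM at 24M, against 72.2, 71.7, 80.6 and 82.7 CPM at 3M (log2 fold change 0.13, 95% interval -0.19 to 0.46, edgeR adjusted p = 0.8049). Its highest library was again 24M replicate 3. For Nr1h2, the liver X receptor beta, the log2 fold change was 0.10 (edgeR adjusted p = 0.8565), and Nr1h3, the liver X receptor alpha, was below the filter at 3.83 ± 0.359 CPM at 24M and 3.05 ± 0.376 CPM at 3M.

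Of 14 listed targets of the liver X receptors and of the SREBP factors, 11 were tested, and edgeR called 3 higher (Abca1, Mylip and Cyp51) and 0 lower at 24M against 3M, while DESeq2 called 4, with Stard4 as the fourth, and limma voom 2 (Abca1 and Mylip). The list had a median log2 fold change of -0.04, and edgeR called 2.65% of all tested genes higher, a share that applies to the edgeR count only. Abca1, the cholesterol exporter, read 233, 175, 147 and 191 CPM at 24M, against 76.0, 80.8, 74.4 and 76.8 CPM at 3M. Every 24M library lay above every 3M library, and Abca1 rose 2.42-fold (log2 fold change 1.28, SE 0.15, edgeR adjusted p = 5.735e-05). Mylip, the ubiquitin ligase that marks the LDL receptor for degradation, read 81.8, 73.8, 75.6 and 80.6 CPM at 24M, against 55.1, 57.2, 62.1 and 53.2 CPM at 3M, and rose 1.37-fold (log2 fold change 0.45, SE 0.08, edgeR adjusted p = 0.003165). Both are known targets of the liver X receptors. Cyp51, a cholesterol synthesis enzyme, had a log2 fold change of 0.32 with an edgeR adjusted p of 0.04912, which was lost under limma voom (0.05755), with no filter (0.1852) and without most single libraries. Abcg1 and Lpcat3, which belong to the same receptors' targets, stood at -0.04 (edgeR adjusted p = 0.9469) and 0.16 (adjusted p = 0.5371) on the log2 scale. Stard4, a sterol carrier, averaged 5.49 ± 0.65 CPM at 24M and 7.54 ± 0.803 CPM at 3M (log2 fold change -0.46, edgeR adjusted p = 0.09277), and it fell by 0.49 over the 21 months on the log2 scale of the linear fit (edgeR adjusted p = 0.04766).

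Among 33 listed genes of acyl-CoA synthesis and phospholipid remodelling, 21 were tested, with a median log2 fold change of -0.002 at 24M against 3M. In that comparison edgeR, DESeq2 and limma voom each called the same 3, all lower. Of all tested genes edgeR called 1.6% lower. Lpin1 and Lpin2, phosphatidate phosphatases that make diacylglycerol, fell by 0.37 (SE 0.07, edgeR adjusted p = 0.005898) and by 0.62 (SE 0.11, edgeR adjusted p = 0.003062) on the log2 scale. Lpin2 read 58.3, 75.9, 65.2 and 69.1 CPM at 24M, against 105, 96.8, 99.6 and 113 CPM at 3M. Lpcat2, a lysophosphatidylcholine acyltransferase, fell by 0.29 (SE 0.06, edgeR adjusted p = 0.009314), with 42.2 to 44.1 CPM at 24M and 50.1 to 54.6 CPM at 3M. With no filter on low values Lpin1 and Lpcat2 missed the threshold (edgeR adjusted p = 0.05375 and 0.1001), and so did Lpcat2 in the fit of the 2 ages alone (edgeR adjusted p = 0.05892). Of the 16 genes of substrate supply and cofactors, 13 were tested and edgeR called 0 at 24M against 3M, with 2 at an unadjusted p under 0.05 (Acss2 and Mid1ip1), 1 called by DESeq2 (Acss2) and 0 by limma voom. Acss2, which makes acetyl-CoA from acetate, passed in the linear fit, where it rose by 0.21 over the 21 months on the log2 scale (edgeR adjusted p = 0.0435), with 45.1 to 46.5 CPM at 24M and 39.0 to 40.2 CPM at 3M.

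**Figure D5:**
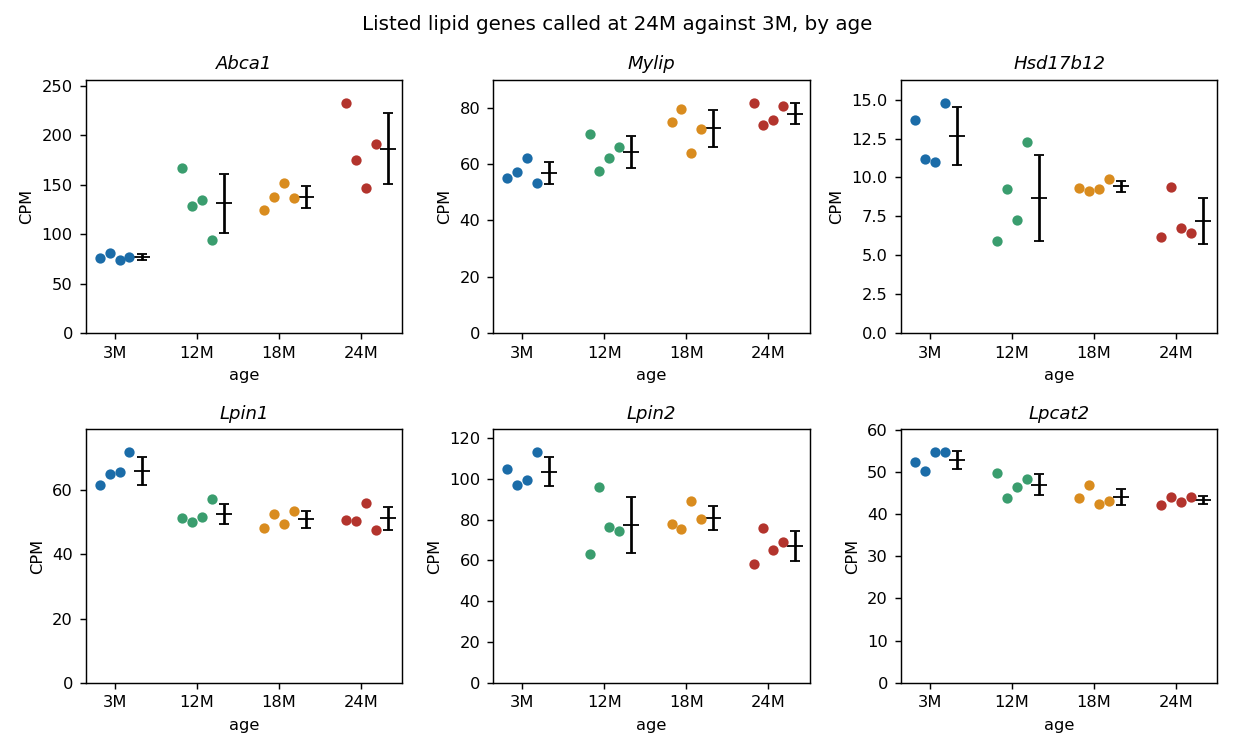
CPM by age, on linear axes from 0, of 6 genes of the pathway lists that edgeR called at 24M against 3M. Cyp51, which was also called, is not shown. Each point is 1 library, and the dash with its bar is the mean ± SD of the 4 libraries of an age. Abca1 and Mylip are higher at 24M than at 3M, and Hsd17b12, Lpin1, Lpin2 and Lpcat2 are lower, and in each panel the 24M and 3M points are separate.

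The 4 protein-coding genes whose log2 CPM followed that of Scd1 most closely over the 16 libraries, among 10285 compared, were Tmem116 (Pearson r = 0.982), Zbtb8a (r = 0.978), Rnf43 (r = 0.978) and Hspa2 (r = 0.975). The 16 libraries share their 4 ages, so any gene that climbs with age in the same way scores highly, and the values are given as a description with no p. Tmem116 averaged 32.2 ± 2.06 CPM at 24M, against 8.27 ± 0.538 CPM at 3M, and Hspa2, a heat shock protein, averaged 31.3 ± 3.83 CPM at 24M (SD, n = 4 each). In each of the 4 genes the 24M libraries lay above the 3M libraries, as in Scd1 and in 5.28% of all tested genes. That separation follows from choosing genes by their correlation with Scd1 and adds no support.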

How the data were processed

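Total RNA of sorted rods was sequenced in 16 libraries, 4 per age. The authors deposited estimated counts per transcript. Per the submitters' processing notes, the build was GRCm38.p4 and the tools included limma 3.32.2, kallisto 0.42.5 and edgeR 3.13.9, with no role or order stated. Neither the annotation nor the strand setting is stated. The authors also deposited a CPM signal per gene, whose libraries sum to 936588 to 1055611 and are not proportional to the summed counts, and a normalized CPM signal without 12M replicate 4, 18M replicate 3 and 24M replicate 3. Per the file headers, the authors' deposited table of comparisons holds log2 differences from 3M, an F score and its p-value.

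Of 113468 transcripts, 111896 were matched to GENCODE M21 by identifier (unmatched: 0.73% to 1.08% of counts), summed to 45038 genes and rounded. The edgeR 4.0.16 quasi-likelihood test (R 4.3.3; TMM factors, 1 mean per age, no block) was run on the 12177 genes that reached 5 CPM in 4 or more libraries, with Benjamini-Hochberg adjustment over them and a threshold of 0.05 (common biological coefficient of variation 0.169). CPM in the text use these factors, and log2 CPM a prior count of 2. The fitting code was checked on simulated counts. Marker sums were compared with exact two-sided permutation tests (scipy 1.17.1). The 95% intervals are of the fitted log2 fold change and include the spread between libraries. Transcript words and alignments came from GENCODE M21 transcripts of GRCm38 (Biopython 1.88).

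Alternatives were DESeq2 1.42.0, limma 3.58.1 voom, plain or with quality weights per sample, DESeq2 size factors, a 1 CPM filter, no filter, limma on the authors' gene CPM with pseudocounts of 0.5 and 2, only the 13 libraries that the authors' normalized table holds, the length slope as a covariate, a replicate block, fits of 2 ages alone, and each library left out in turn. The length slope of a library is fitted to its log2 CPM, centred per gene, against log2 transcript length. The alternatives for genes of the pathway lists and for marker sums were chosen after seeing the data. Genes named are the 10 members, genes of the pathway lists called at 24M against 3M or by the linear term (up to 6 a list), and the 4 genes most correlated with each member called for any difference among ages. Scd3, Scd4, Elovl6, Hacd1, Hacd2, Hacd3, Tecr, Srebf1, Nr1h2, Nr1h3, Abcg1, Lpcat3, Mid1ip1, Gm11437 and the marker genes fall outside that rule; their values had been seen when they were chosen. The sum over the rod marker list is not reported here. The members and lists were chosen with earlier results of these data known.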

Additional observations from a re-analysis of the deposited data

Results flagged for a closer look

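In 12M replicate 4, Fasn (70.1 CPM, against 42.8, 41.6 and 43.2 CPM in the other 12M libraries) and Fads2 (3.98 CPM, against 2.22, 2.18 and 2.07 CPM) stood apart from the other libraries of that age. The gap to the nearest library was 0.943 of the range for Fasn and 0.921 for Fads2. Of 40 groups of a member and an age that were looked at, these were the 2 marked, and chance marks about 1 in 20, so this number of marks is no more than chance gives. The same library also held the highest Fads1 level (10.1 CPM) and the highest Müller glia and cone sums of the series (567 and 132 CPM). It is left out of the authors' normalized CPM signal. What sets this library apart was not tested.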

How the results depend on the processing

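Scd1 kept its direction and its call at 24M, 18M and 12M against 3M wherever it was tested; in fits of 2 ages alone it missed the filter at 18M and 12M, which gave 0 called members there. At 24M against 3M, 2 members were called, but 1 with a filter of 1 CPM, with no filter and with the authors' gene CPM at pseudocounts of 0.5 and 2, and 1 to 2 with single libraries left out, and 3 (Scd1, Scd2 and Fasn) with the length slope, alone or with the block. At 18M against 3M, where 1 was called, 2 were called in the 13 libraries, with the length slope, with the block and slope, and with quality weights. At 12M against 3M it was 1, beside 1.39% of all genes, and 3 with quality weights. It was also 3 in the 13 libraries, where 38.4% of 12050 genes were called. At 18M against 12M it was 0, and 1 with DESeq2, the 13 libraries, and the block and slope, and 3 with quality weights. At 24M against 18M it was 0, and 1 with the slope or quality weights and 3 with the block and slope. The linear term called 2, and 1 with no filter and with the authors' gene CPM at either pseudocount (1 to 2 with single libraries left out). Any difference called 1, and 2 with DESeq2 or the slope, 3 with the block and slope or quality weights, and 4 in the 13 libraries (1 to 2 with single libraries left out). Except for the 13 libraries at 12M against 3M, the share of all genes called is not given for these alternative fits. Their counts are therefore not read as results about the members. Fasn at 24M against 3M reversed, with a log2 fold change of 0.13 at first, to -0.009 with the authors' gene CPM at either pseudocount, -0.044 in the 13 libraries, -0.056 with quality weights and -0.045 without 24M replicate 3 (single libraries left out gave -0.045 to 0.222), and Acaca to -0.002 with the authors' gene CPM at either pseudocount. The cause was not tested. Same-numbered libraries did not deviate together in every pair (correlations from -0.744 to 0.726), so the numbers were not read as pairs; with the replicate block the counts of called members were the same (2 at 24M against 3M). Depth limits Elovl5 and the Scd1 level at 3M.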

Other observations

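The counts of some members were split over annotated transcripts, which were looked at after the gene values and carry no test. Of the Acaca counts, 21.3 ± 2.58% at 24M and 22.5 ± 1.13% at 3M (SD, n = 4 each) went to Acaca-207, annotated as a transcript with a retained intron, and 70.5 ± 1.88% at 24M and 66.8 ± 2.88% at 3M to the coding Acaca-201. Elovl2-202 held 29.7 ± 2.17% of the Elovl2 counts at 24M and 30.5 ± 1.7% at 3M, with 26.5 ± 4.26% at 12M and 24.6 ± 1.94% at 18M, so its 18M libraries (22.2 to 27%) lay below those of 3M (29 to 32.9%). Fasn was divided between Fasn-201 (55.2 ± 2.54% at 24M and 55 ± 6.03% at 3M) and Fasn-205, which also codes for protein. Elovl1 was the most divided of the 10, with Elovl1-202 at 39.2% and the noncoding Elovl1-205 at 29.2% of its counts on average over the 16 libraries.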
